A study of Mus musculus and Homo sapiens with 180 samples.

Results

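Cytosolic ribosomal protein genes, which encode the proteins of the large (RPL) and small (RPS) subunits of the 80S ribosome, were followed through 138 of 180 labelled 3′ RNA-seq libraries in 9 experiments. Members were all genes whose symbol is RPL or RPS and a number, with or without a suffix A, X or L, together with RPLP0, RPLP1, RPLP2 and RPSA, while pseudogenes, the RPS6K kinases and RPS4Y genes were left out. Each experiment held 82 members, of 24328 to 63152 genes listed, and 83 symbols occurred over all experiments. The rule used names alone, so no measured value chose a member.

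The study asked how loss of the Polycomb complex PRC1.1, of which PCGF1 and BCOR are subunits, alters the response of MLL-rearranged leukaemia to inhibitors of DOT1L (SGC0946) and menin (VTP50469). Murine MLLAF9 leukaemia cells with a control guide received DMSO (labelled 72 h), SGC0946 at 3 µM over 72 h, or VTP50469 at 300 nM over either 8 h or 48 h. In a second murine experiment DMSO (48 h) was compared with VTP50469 (300 nM, either 8 h or 48 h) and with 24 h after the 8 h exposure and 24 h, 48 h and 72 h after the 48 h exposure. The human lines MOLM13 and MV4;11, from acute myeloid leukaemias with MLL fusions, were given DMSO (72 h), SGC0946 at 5 µM over 72 h, or VTP50469 at 500 nM over 48 h. MOLM13 carried a control guide, PCGF1 KO or BCOR KO, and MV4;11 carried a control guide or PCGF1 KO, the latter a single clone. A further MOLM13 experiment compared control and PCGF1/BCOR KO cells after DMSO (96 h), after 96 h of 500 nM VTP50469, and 48 h or 96 h after its removal. K562 (chronic myeloid leukaemia), HuDEP-2 (an immortalised erythroid progenitor line) and mouse embryonic stem cells (mESC) received DMSO or 5 µM SGC0946 for 168 h. HuDEP-2 cells pretreated with DMSO or SGC0946 (5 µM per the methods) for 7 days were also compared undifferentiated and differentiated. The labels give 72 h for these libraries, whereas the study's figure legend gives an earlier day of differentiation. Groups held 3 libraries, or 4 in K562, HuDEP-2 and mESC. The study calls its replicates biological for several of these experiments, whereas the labels do not say whether the libraries came from separate cultures, so p-values measure the spread between these libraries.

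Ribosomal proteins assemble with ribosomal RNA in the nucleolus and are needed in near-equal amounts, and their transcripts are among the most abundant of any growing cell. Most carry a 5′ terminal oligopyrimidine (TOP) motif, a cytosine at the start site followed by an unbroken run of pyrimidines, through which mTOR signalling controls their translation. In blood, haploinsufficiency of members such as RPS19, RPL5 and RPL11 causes Diamond-Blackfan anaemia, loss of RPS14 contributes to the 5q- syndrome, and free RPL5 and RPL11 bind MDM2 and so stabilise p53.

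The start sites show this shared feature, which the naming rule did not use. Of 82 human members with a canonical GENCODE v44 transcript on GRCh38, 58 (70.7%) started with C followed by at least 4 pyrimidines (C or T), against 917 of 20020 genes (4.58%). A start base C alone was found in 63 members (76.8%) and in 10.7% of all genes. The windows below hold 10 bases before the annotated start and 10 from it, on the coding strand. Capitals mark the pyrimidine run that holds the start base. Members called in several comparisons are shown first, then some parent genes beside L paralogues that lack the run. RPL36AL, an L paralogue not shown, has a run that holds its start base, with too few pyrimidines after it to count among the 58.
RPS18: cacttccgCTCTCTCTTCCa
RPL28: cctcgCCTTCCTCTTTCCgt
RPL23: TTCTTTTTTCCggcgttcaa
RPLP0: ggcgcgaggCCCTTCTCTCg
RPS27: cgctttcgCTCCTTTCCggc
RPS27L: gatgccgagcgcagatcgct
RPL39: ccgccagCTTCCCTCCTCTT
RPL39L: cggggaaatcgcggtcttag
RPL10: ggaggagcgCCTCTTTCCCT
RPL10L: gtagttaagagagcgcattt

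These windows lie at chr6:33272065-33272084 (RPS18, plus strand), chr19:55385922-55385941 (RPL28, plus) and chr17:38853712-38853731 (RPL23, minus). The others lie at chr12:120201102-120201121 (RPLP0, minus), chr1:153990752-153990771 (RPS27, plus), chr15:63157468-63157487 (RPS27L, minus), chrX:119791621-119791640 (RPL39, minus), chr3:187139487-187139506 (RPL39L, minus), chrX:154398367-154398386 (RPL10, plus) and chr14:46651772-46651791 (RPL10L, minus). Each spans the junction between the promoter and the first exon. The annotated start of RPL23 is the last base of its run, so its window does not count among the 58. In mouse RefSeq start sites, which matched 62 members, 14 (22.6%) had the motif, against 3.01% of 27025 genes.

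Members took a share of all gene counts that differed between experiments and, within most of them, little between treatments. Murine libraries ranged from 11.3% to 17.9% (knockout experiment) and from 13.1% to 17.5% (washout experiment). MOLM13 libraries ranged from 22.0% to 25.8% with single knockouts and from 5.53% to 23.1% across the washout. Shares ran between 5.04% and 10.6% for MV4;11, between 12.3% and 14.1% for K562 and between 5.56% and 7.06% for mESC. HuDEP-2 libraries lay at 9.003% to 9.84%, or at 16.9% to 18.7% when differentiation was studied. The tables were made and scaled separately, so levels are compared only within one. In MOLM13 control cells the share was 23.4% to 23.9% with DMSO, 25.2% to 25.8% with SGC0946 and 24.3% to 25.1% with VTP50469, and the 3 groups did not overlap. In the murine knockout experiment replicate 2 had the highest share in all 4 groups (14.7% to 17.9%, against 11.3% to 14.4% in the other 2 replicates).

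**Figure D1:**
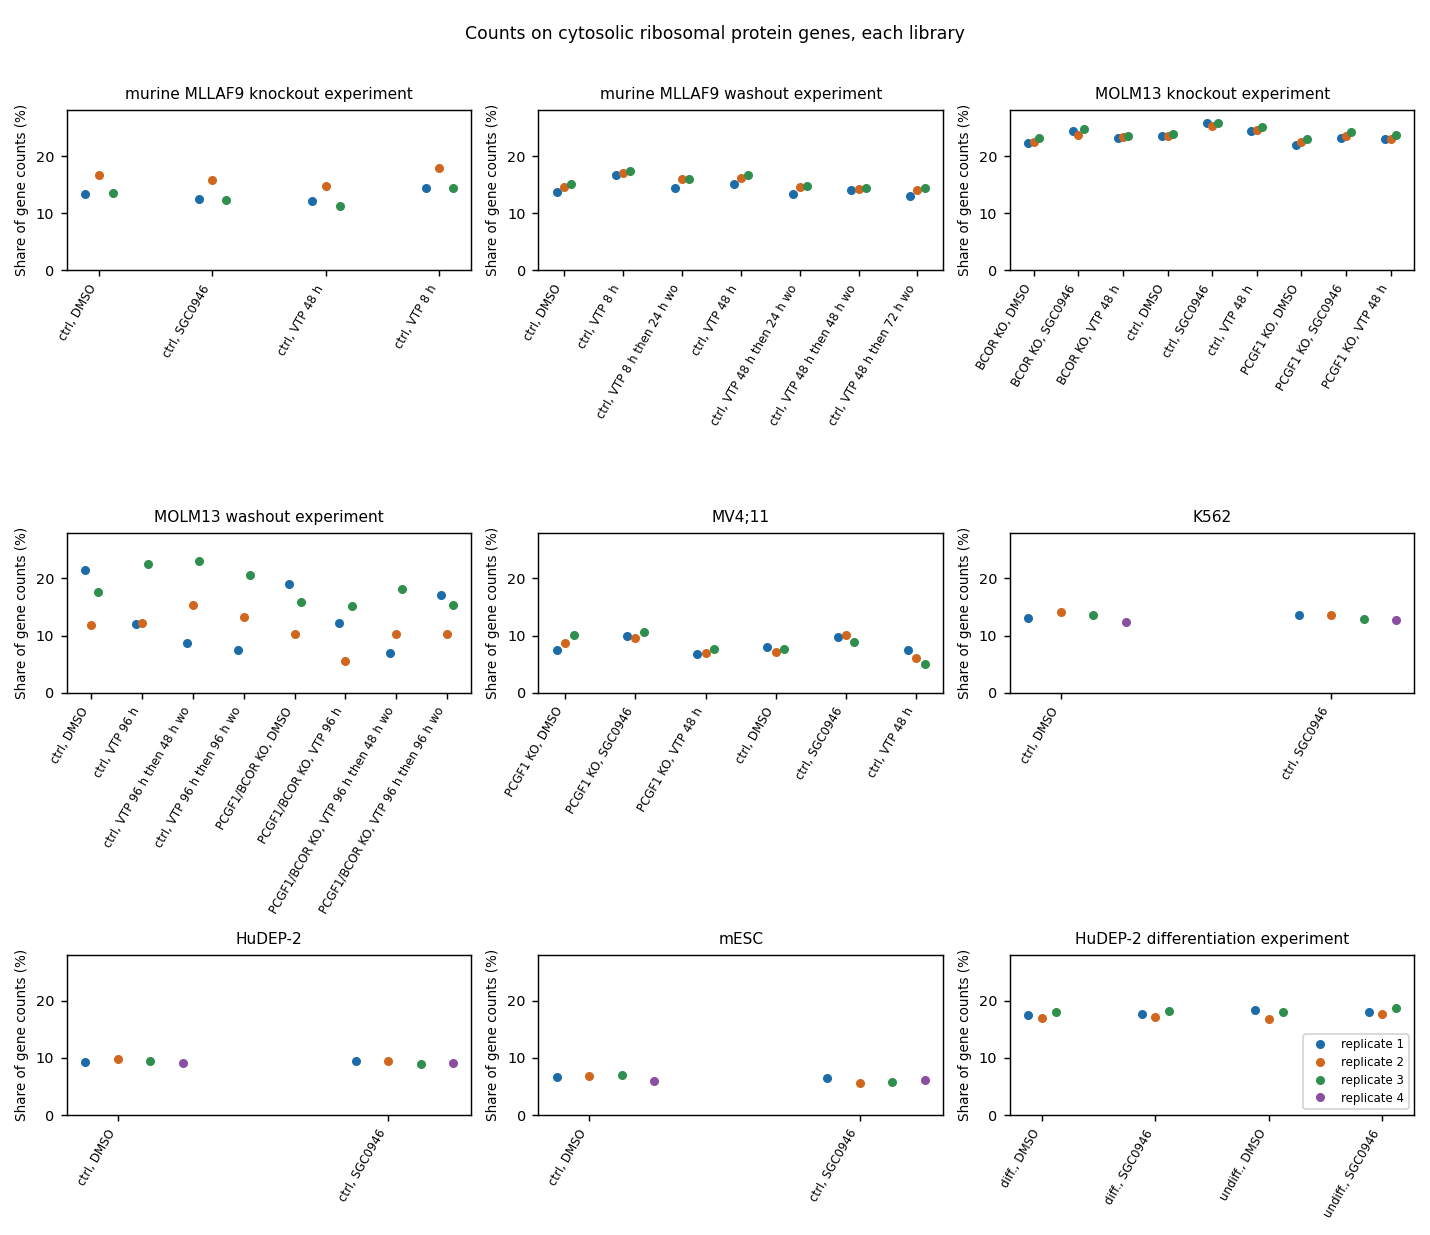
Share of gene counts on cytosolic ribosomal protein genes (percent, y axis) in each of 138 libraries, by group (x axis; ctrl, control; VTP, VTP50469; wo, washout) and experiment, with replicates coloured. The 3 MOLM13 control groups do not overlap, while in the MOLM13 washout experiment shares spread from 5.53% to 23.1% and replicates differ more than treatments.

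Several libraries and tables limit these values. In MV4;11, 2 features with no symbol in GENCODE v44 held 19.1% to 60.1% of gene counts. Without them the share of ribosomal protein genes was 12.7% to 13.0% in control DMSO, 14.5% to 15.7% with SGC0946, 12.6% to 14.2% with VTP50469 and 11.9% to 12.4% in PCGF1 KO DMSO libraries. In the MOLM13 knockout experiment, replicate 2 of control DMSO stood apart, with 8.498% of its reads on members and their pseudogenes assigned to pseudogenes, against 4.29% and 4.20% in the other 2. In the MOLM13 washout experiment DMSO libraries held 21732246 to 47065530 counts and all others 491592 to 10139313, so depth and treatment cannot be told apart there. In mESC, SGC0946 replicate 4 held 34303 counts, which stand 1 cell to the right of their column name in the table. The MV4;11 PCGF1 KO DMSO libraries stood apart from each other, with variances of 19.7, 31.2 and 67.9 times counting noise between pairs, the last between replicates 1 and 3. The other MV4;11 groups lay at 1.99 to 23.9. Pairs in the MOLM13 washout experiment lay higher, at 31.0 to 644. The MV4;11 control and PCGF1 KO columns were matched to the labels as the only control and PCGF1 column sets with all 3 treatments, and other columns of that table were not used. BCOR reads were higher in the MOLM13 BCOR KO DMSO libraries (97.9 to 111 CPM) than in control DMSO (45.3 to 56.03), and PCGF1 was at 3.36 to 8.08 CPM in PCGF1 KO DMSO against 7.19 to 8.42, so these 3′ counts do not check the edits. In bulk RNA, fewer cells of a type and less RNA per cell cannot be told apart. The mESC libraries are labelled blood, yet all 5 pluripotency markers were present, at a summed 1173 to 1457 CPM, and the myeloid list summed to 1.53 to 22.5 CPM.

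Some members could not be measured everywhere. After a filter of 2 CPM (read counts scaled to a common library size) in 2 libraries, between 72 (HuDEP-2) and 82 (mESC) members were tested, with 74 in K562 and HuDEP-2 differentiation, 76 in the MOLM13 washout experiment, 77 in the murine knockout experiment and 78 in the other 3. Passing the filter did not mean a high level. In mESC 20 members had a mean under 50 CPM, among them Rpl3 at 4.69, Rps12 at 2.05 and Rps28 at 1.95. In HuDEP-2 14 did, untested members included, and RPL21 was at a mean of 8.47. RPL7A, RPS9, RPS18 and RPS25 were listed at 0 in every library of the MOLM13 washout, K562, HuDEP-2 and HuDEP-2 differentiation tables, although they were counted in the MOLM13 knockout and MV4;11 tables. Human RPL17 was below the filter in the MOLM13 knockout and MV4;11 tables, and mouse Rpl26 was untested outside mESC. Counts of near-identical copies can be split by the counting, and the strand setting is not given in the sources used here, so such members are uncertain. Reads of a 3′ library come from transcript ends and do not scale with length. Per-gene values below are CPM scaled by TMM, a normalization that assumes most genes do not change. Differences are log2 fold changes from the quasi-likelihood test of edgeR, and p-values are Benjamini-Hochberg adjusted over all genes tested. A member was called at an adjusted p under 0.05. Many members described as having groups that do not overlap were picked as the largest called changes in the same data. Such separation is therefore a description and not further evidence. The share of all genes with separate groups is given only for VTP50469 at 8 h in the murine washout experiment. Counts from alternative fits, or without a library, come without the share of all genes called in that fit unless it is stated. They show only how far the calls depended on the setting.

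The paralogues named L arose from duplication or retrotransposition of a parent gene, and several are expressed in few tissues. RPL10L, a testis gene, was at 0 in all MOLM13, MV4;11 and K562 libraries but at 44.96 to 154 CPM in mESC. Its parent Rpl10 had a mean of 10.7 CPM in mESC, and whether reads were shifted between these copies was not tested. RPL39L lay between 8.88 and 17.5 CPM in MOLM13 libraries with single knockouts, between 9.03 and 103.7 across the MOLM13 washout, between 31.1 and 46.3 for K562 and between 108 and 225 for mESC, and did not pass 0.983 in HuDEP-2. RPL3L, a striated muscle gene, was at no more than 5.10 CPM in any library outside mESC. In mESC it was at 7.87 to 15.4, but for few reads that gave 112 in SGC0946 replicate 4, the library of 34303 counts. RPL36AL and RPS27L, by contrast, were expressed throughout, RPS27L from 33.3 to 1162 CPM and RPL36AL from 72.0 to 2638.

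DOT1L inhibition was followed by higher ribosomal protein transcripts in control MOLM13 cells. With SGC0946, 19 of 78 members rose and 0 fell, against 7.23% of all 12140 genes that rose and 5.77% that fell. The median log2 fold change of members was 0.15, against 0.00 for all genes, and 67 members lay above 0. RPS18, of the small subunit head, was at 5298, 3295 and 5419 CPM with DMSO and at 7395, 7174 and 7342 with SGC0946. It rose 1.56-fold (log2 0.64 ± 0.11 SE, adjusted p = 9.71e-05), the groups did not overlap, and the lowest DMSO library was the replicate 2 that stood apart.

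RPL23, another MDM2 binding member, was at 3236, 3006 and 3208 CPM with DMSO and at 3896, 4002 and 3893 with SGC0946, 1.25-fold higher (log2 0.32 ± 0.06, adjusted p = 0.000206). All 3 treated libraries lay above all 3 controls. RPL37A was at 7652, 5189 and 7374 CPM with DMSO and at 8663, 8001 and 8468 with SGC0946 (log2 0.31 ± 0.10, adjusted p = 0.0355). Its call was lost without DMSO replicate 2 or any one of the 3 SGC0946 libraries (adjusted p from 0.052 to 0.22), whereas RPS18 and RPL23 were called without any one library.

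Of the P stalk, which recruits elongation factors, RPLP0 rose from 3444, 3086 and 3392 to 4037, 4046 and 3953 CPM (log2 0.28 ± 0.05, adjusted p = 0.000637) and RPLP1 by 0.20 (adjusted p = 0.0226), while RPLP2 was not called. RPSA, which also serves as a laminin receptor, rose by 0.31 (adjusted p = 0.0384), and RPS27 by 0.24 (adjusted p = 0.00471). RPLP0 and RPS27 were called without any one library, whereas RPLP1 lost its call without DMSO replicate 1 or 3 or SGC0946 replicate 3 (adjusted p from 0.053 to 0.09) and RPSA without DMSO replicate 2 or any SGC0946 library (0.073 to 0.21). The 5S particle members RPL5 (log2 0.17, adjusted p = 0.163) and RPL11 (log2 0.10, adjusted p = 0.286) were not called. FAU, which encodes a ribosomal protein fused to a ubiquitin-like protein and falls outside the naming rule, rose by 0.29 (adjusted p = 0.0315), a call lost without DMSO replicate 2 or SGC0946 replicate 1 or 3 (0.085 to 0.19).

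These counts depended on which libraries shared the fit. Fitted on only the 6 libraries compared, 0 members were called by edgeR, and without control DMSO replicate 2 the counts were 21 higher and 1 lower. Without SGC0946 replicate 1 or replicate 3 the count was 12 in each case, and under scaling by library totals 8 rose and 0 fell. The summed level of 6 mature myeloid markers also moved, from 8.82 to 9.82 CPM with DMSO to 38.7 to 45.9 with SGC0946, and its part in the result was not tested.

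**Figure D2:**
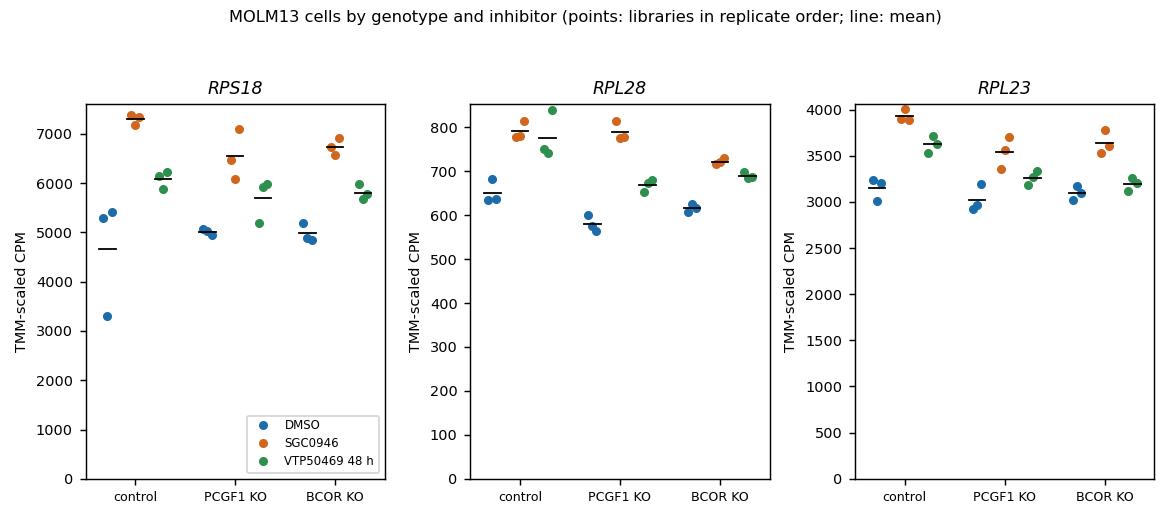
TMM-scaled CPM (y axis, from 0) of RPS18, RPL28 and RPL23 in the 27 MOLM13 libraries by genotype (x axis) and treatment (colour), with a line at each mean of 3. SGC0946 libraries lie above the DMSO libraries of the same genotype for all 3 genes, and 1 control DMSO library is low for RPS18 (3295 CPM).

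In MOLM13 knockout cells the same inhibitor gave fewer calls. In PCGF1 KO cells 4 of 78 members rose with SGC0946 and 0 fell (background 2.19% higher and 0.923% lower), with a member median of 0.09. In BCOR KO cells 4 rose and 0 fell (2.83% and 1.57%), with a median of 0.12. DESeq2 called 8 in BCOR KO cells. RPL28, of the large subunit, was at 600, 576 and 564 CPM with DMSO in PCGF1 KO cells and at 814, 776 and 779 with SGC0946 (log2 0.44 ± 0.06, adjusted p = 1.87e-05), with no overlap and with the call kept without any one library.

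RPS18 rose by 0.38 in PCGF1 KO (adjusted p = 0.0428) and 0.44 in BCOR KO cells (adjusted p = 0.015), and RPL23 by 0.23 in BCOR KO cells (adjusted p = 0.0128). The RPS18 call in PCGF1 KO cells was lost without any one of the 6 libraries (adjusted p from 0.079 to 0.26), and the count in PCGF1 KO cells was 2 without DMSO replicate 2, SGC0946 replicate 2 or SGC0946 replicate 3. In BCOR KO cells RPS18 lost its call without DMSO replicate 2 or 3 or SGC0946 replicate 1 or 3 (adjusted p from 0.064 to 0.09) and RPL23 without DMSO replicate 1 or SGC0946 replicate 2 or 3 (0.057 to 0.093). The count there was 1 without DMSO replicate 1, DMSO replicate 2 or SGC0946 replicate 3, and 2 without DMSO replicate 3 or SGC0946 replicate 2.

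The difference of the SGC0946 response between PCGF1 KO and control cells was tested directly. In edgeR's interaction 0 of 78 members were called (0.222% of all genes higher, 0.428% lower), DESeq2 called 0, and 3 members had an unadjusted p under 0.05, all lower in the knockout. A smaller count in the knockout is therefore not shown to be a different response.

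Members were also higher with SGC0946 in MV4;11 control cells. Of 78 members 25 rose and 0 fell (background 6.42% higher and 5.79% lower), with a member median of 0.25 against 0.01 for all genes and 73 members above 0. RPL34 was at 208, 193 and 197 CPM with DMSO and at 294, 279 and 268 with SGC0946 (log2 0.49 ± 0.09, adjusted p = 0.000216). RPL13A, known as a regulator of inflammatory mRNA translation when released from the ribosome, was at 1064, 1101 and 1065 and at 1368, 1436 and 1457 CPM (log2 0.40 ± 0.08, adjusted p = 0.00101). In both the groups did not overlap and the call stood without any one library.

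RPL31 was at 638, 550 and 640 CPM with DMSO and at 844, 816 and 824 with SGC0946 (log2 0.44 ± 0.11, adjusted p = 0.00941), a call lost without DMSO replicate 2 (adjusted p = 0.067). RPS14 rose from 1820, 1932 and 1756 to 2515, 2305 and 2345 CPM (log2 0.38 ± 0.09, adjusted p = 0.00564), and RPS19 by 0.30 (adjusted p = 0.0103), whereas RPL5 and RPL11 were again not called (log2 0.18 and 0.20, adjusted p = 0.357 and 0.168). Of the paralogue pairs, RPL36A rose by 0.38 (adjusted p = 0.0185) and RPL39 by 0.28 (adjusted p = 0.0426), and neither RPL36AL nor RPS27L was called. RPS14 was called without any one library. RPS19 lost its call without SGC0946 replicate 1 (adjusted p = 0.072), RPL36A without DMSO replicate 1 or 3 or SGC0946 replicate 1 or 2 (0.053 to 0.095), and RPL39 without any library but SGC0946 replicate 2 (0.071 to 0.2).

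The count depended on the scaling in MV4;11. By library totals 9 rose and 0 fell, and in a fit of the 6 libraries alone 49 rose and 3 fell. The share of all genes called in these fits is not given, so the 49 are not read as a result on members. The number called was 13 without DMSO replicate 1, 12 without DMSO replicate 2 or 3, and 10 without SGC0946 replicate 1. The mature myeloid markers summed to 11.8 to 19.2 CPM with DMSO and 40.4 to 43.8 with SGC0946, and their part was not tested.

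In murine MLLAF9 cells SGC0946 left members without a call. Of 77 members 0 rose and 0 fell in edgeR (background 3.31% and 2.1%), 0 had an unadjusted p under 0.05, DESeq2 called 0, and the median was -0.06. Rplp0 was at 7863, 11294 and 8954 CPM with DMSO and at 8216, 12059 and 8916 with SGC0946, with replicate 2 highest in both groups. With the replicate number as a block, which pairs these libraries, 6 members rose and 8 fell, beside 8.84% and 6.99% of all genes in that fit. Mature myeloid markers summed to 132 to 165 CPM with DMSO and to 546 to 834 with SGC0946 in the same libraries, and their part was not tested.

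K562, HuDEP-2 and mESC, which lack an MLL fusion, were treated for 168 h rather than 72 h. In K562 14 of 74 members rose and 0 fell, near the background of 17.7% higher and under that of 17.2% lower, and the median was 0.04. RPS26, a Diamond-Blackfan anaemia gene, was at 37.3, 50.5, 40.9 and 39.8 CPM with DMSO and at 90.8, 76.6, 75.5 and 82.3 with SGC0946 (log2 0.95 ± 0.11, adjusted p = 5.61e-07). RPL36AL was at 188, 192, 194 and 206 CPM and at 333, 281, 304 and 297 (log2 0.64 ± 0.07, adjusted p = 5.61e-07). RPL38, which in mice affects translation of Hox mRNAs, rose by 0.43 (log2, adjusted p = 0.000318), and all 3 calls stood without any one library, with no overlap between groups.

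By library totals the K562 split was 11 higher and 5 lower. Without DMSO replicate 4 it was 11 higher and 9 lower, without DMSO replicate 2 22 members were called, and without SGC0946 replicate 1 9 were. The parent gene RPL36A was below the filter in K562, at 0.572 to 1.89 CPM. All 10 erythroid markers were present, at a summed 3489 to 4291 CPM with DMSO and 4656 to 5902 CPM with SGC0946, and their part was not tested.

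In HuDEP-2 0 of 72 members rose and 1 fell (background 5.06% and 3.1%), with a median of -0.04. The member was RPS2, at 2912, 2760, 2650 and 2527 CPM with DMSO and at 2290, 2383, 2217 and 2330 with SGC0946 (log2 -0.23 ± 0.06, adjusted p = 0.0127), with no overlap. The call was lost without SGC0946 replicate 3 (adjusted p = 0.083), and 5 members were called without DMSO replicate 2. In edgeR 7 members had an unadjusted p under 0.05, all lower.

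In mESC some members were called in each direction, at shares under or near those of all genes. Of 82 members 4 rose and 10 fell, against a background of 9.76% and 12.3%, and the median was -0.02. Rps14 was at 5267, 4092, 6232 and 6682 CPM with DMSO and at 2925, 3379, 3236 and 3395 with SGC0946 (log2 -0.79 ± 0.12, adjusted p = 4.44e-06), and Rps3, which also acts in DNA repair, at 5473, 5119, 6217 and 5260 and at 4083, 3158, 3497 and 3057 (log2 -0.66 ± 0.11, adjusted p = 1.57e-05). Neither pair of groups overlapped.

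A pair of L paralogues fell in mESC. Rpl10l was at 148, 144, 154 and 147 CPM with DMSO and at 80.7, 87.2, 91.7 and 44.96 with SGC0946 (log2 -0.79 ± 0.13, adjusted p = 1.46e-05). The parent Rpl10 had a mean of only 10.7 CPM in these libraries, so the level of Rpl10l is uncertain. Rpl39l fell by 0.60 on the log2 scale (adjusted p = 0.000922), with SGC0946 replicate 4 above all others at 225 CPM, and Rpl22l1, a paralogue of the RNA-binding protein Rpl22 outside the rule, was at 144, 128, 167 and 124 and at 72.7, 47.7, 61.1 and 44.96 CPM (log2 -1.22 ± 0.15, adjusted p = 8.25e-08). Rpl31 rose from 78.4, 81.9, 83.8 and 99.5 to 146, 150, 142 and 202 CPM (log2 0.78 ± 0.13, adjusted p = 2.2e-05).

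The calls on Rps14, Rps3, Rpl10l, Rpl39l, Rpl22l1 and Rpl31 stood without any one library. Without SGC0946 replicate 4, the library of 34303 counts, 6 members rose and 11 fell, and without DMSO replicate 4 25 members were called. DESeq2 called 2 higher and 6 lower.

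**Figure D3:**
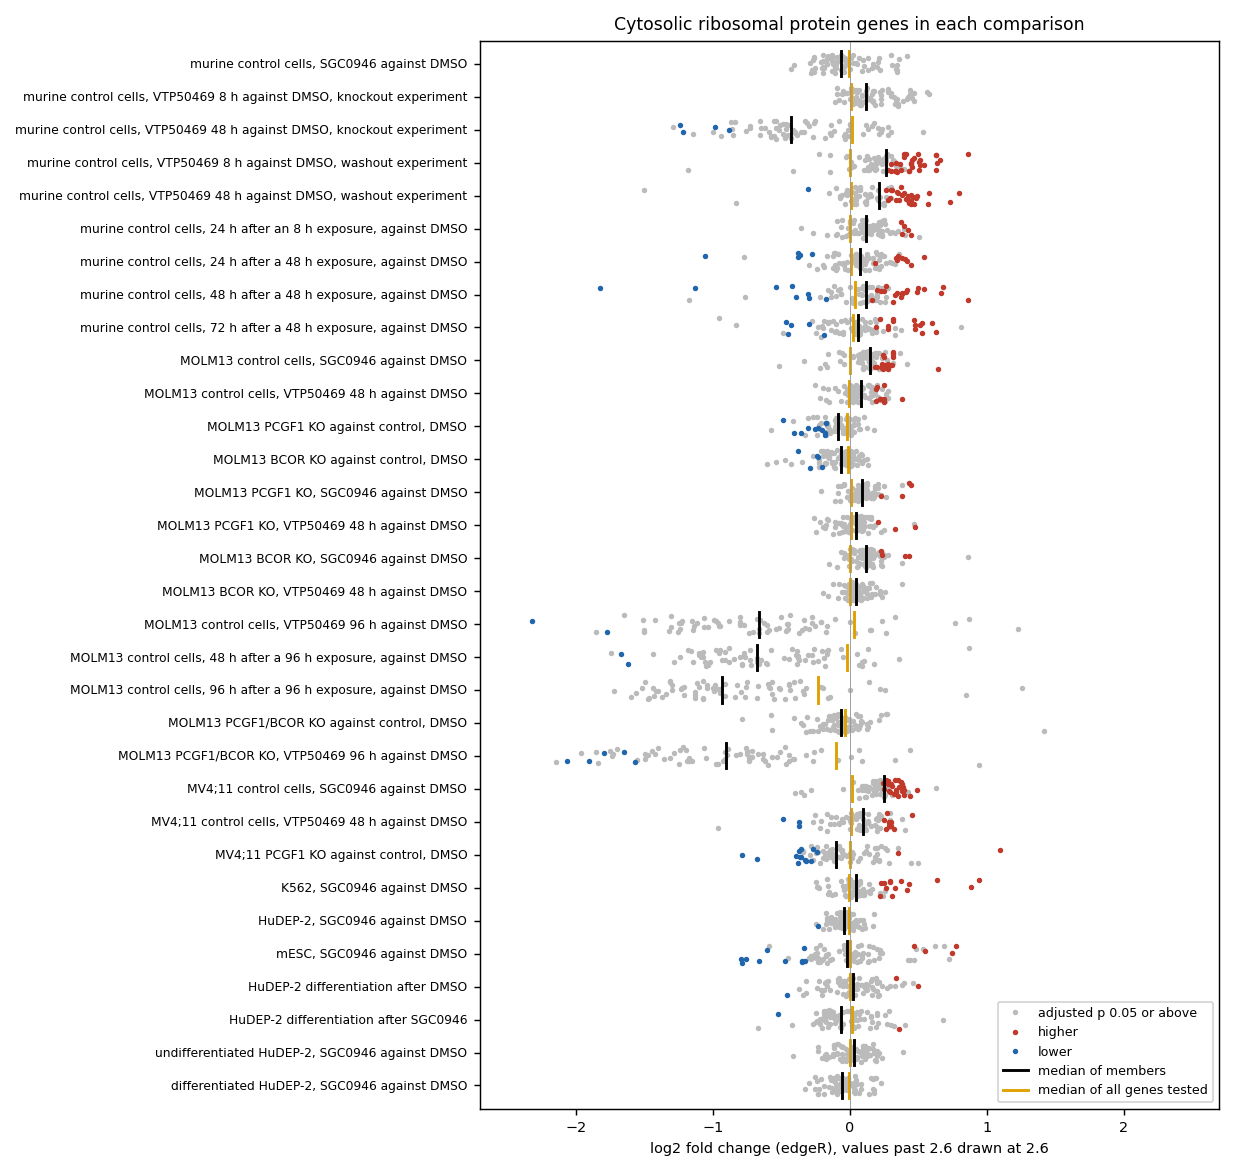
Log2 fold change (x axis; edgeR) of each member tested, by comparison (y axis), with called members in red (higher) or blue (lower) and medians of members (black) and of all genes tested (yellow). Member medians lie above those of all genes with SGC0946 in MOLM13 (0.15) and MV4;11 (0.25) and with VTP50469 in the murine washout experiment (0.27 at 8 h), and below them at 96 h of VTP50469 in MOLM13 (-0.66). In that last comparison TMM factors also differed between DMSO (0.703 to 0.853) and treated libraries (0.994 to 1.33).

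Members were higher within 8 h of menin inhibition in the murine washout experiment. The test used throughout this experiment did not pair libraries, although every library correlated best with its own replicate number. Of 78 members 31 rose and 0 fell at 8 h, against 3.29% and 3.28% of 9848 genes, and the member median was 0.27 against 0.00. At 48 h 30 rose and 1 fell (background 12.8% and 11.1%), with a median of 0.22. Rps12, a small subunit member, was at 313, 385 and 482 CPM with DMSO, at 634, 707 and 811 at 8 h and at 571, 668 and 814 at 48 h. It rose by 0.86 ± 0.17 at 8 h (adjusted p = 0.00156) and by 0.80 ± 0.17 at 48 h (adjusted p = 0.000731), and neither treated group overlapped DMSO.

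At 8 h Rps15a was at 715, 839 and 708 CPM against 425, 517 and 493 with DMSO (log2 0.66 ± 0.12, adjusted p = 0.000899), and Rpl21 at 2091, 2360 and 2045 against 1278, 1551 and 1344 (log2 0.64 ± 0.10, adjusted p = 0.000141). Rps27a, made as a fusion with ubiquitin, was at 1401, 1678 and 1519 CPM with DMSO and at 2258, 2592 and 2261 at 8 h (log2 0.63 ± 0.12, adjusted p = 0.000992). The groups did not overlap for any of the 3. At 8 h, 41 of 78 members lay above DMSO in every library and 1 lay below it in every library. Of all genes, 12.8% lay above DMSO in every library. Rpl11 rose by 0.37 (adjusted p = 0.000677) and Rpsa by 0.33 (adjusted p = 0.0255), while Rplp0 was not called (log2 0.14, adjusted p = 0.394).

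At 48 h Rpl9 was at 1153, 1369 and 1085 CPM against 679, 834 and 659 with DMSO (log2 0.73 ± 0.13, adjusted p = 0.000105), and Rpl15 at 823, 1035 and 774 against 531, 676 and 553 (log2 0.58 ± 0.14, adjusted p = 0.00257). Rpl38 rose by 0.44 (adjusted p = 0.00135) and Rplp0 by 0.29 (adjusted p = 0.0148). The member that fell was Rps27l, a p53-induced paralogue of Rps27, at 994, 1127 and 929 CPM with DMSO and at 766, 939 and 770 at 48 h (log2 -0.30 ± 0.11, adjusted p = 0.0477), with overlapping groups. Its call was lost without DMSO replicate 1 or 2 or VTP50469 replicate 1 or 3 (adjusted p from 0.079 to 0.23).

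Rpsa lost its call at 8 h without DMSO replicate 1 or 2 or VTP50469 replicate 1 or 3 (adjusted p from 0.082 to 0.13), and Rplp0 at 48 h without DMSO replicate 1 or 2 or VTP50469 replicate 3 (0.066 to 0.11). The calls on Rps12, Rps15a, Rpl21, Rps27a and Rpl11 at 8 h and on Rps12, Rpl9, Rpl15 and Rpl38 at 48 h stood without any one library. Counts fell to 16 at 8 h without DMSO replicate 1, to 20 without 8 h replicate 2, and to 19 at 48 h without DMSO replicate 1. Mature myeloid markers were level at 8 h (288 to 327 CPM summed, against 309 to 348 with DMSO) and higher at 48 h (2188 to 2678), and their part at 48 h was not tested.

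After the inhibitor was removed the pattern changed. At 24 h after the 8 h exposure 5 members rose and 0 fell (background 3.34% and 1.26%), with a median of 0.12. Rps15a was at 551, 739 and 667 CPM (log2 0.45 ± 0.12, adjusted p = 0.0292) and Rpl7 at 1398, 1523 and 1253 against 1062, 1141 and 960 (log2 0.40 ± 0.09, adjusted p = 0.0059). Rps15a and Rpl7 did not overlap DMSO, but Rps15a lost its call without DMSO replicate 1 or 3 or washout replicate 2 or 3 (adjusted p from 0.06 to 0.17) and Rpl7 without washout replicate 2 or DMSO replicate 3 (adjusted p = 0.061 and 0.054). Rpl22 (log2 0.42, adjusted p = 0.0489) lost its call without any library but washout replicate 1 (0.052 to 0.36). The count was 0 without washout replicate 2, 1 without DMSO replicate 1, 2 without DMSO replicate 3 or washout replicate 3, and 3 without DMSO replicate 2.

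After the 48 h exposure members split. At 24 h of washout 9 rose and 5 fell (background 15% and 13%), at 48 h 19 rose and 8 fell (20% and 20%), and at 72 h 14 rose and 5 fell (21.6% and 21%). The member medians were 0.07, 0.12 and 0.06, against 0.01, 0.04 and 0.02 for all genes. These shares are near or under the background. By library totals the splits turned, to 6 higher and 11 lower, 6 higher and 15 lower, and 7 higher and 21 lower.

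Rpl32 was among the members that rose, at 2626, 3203 and 2906 CPM with DMSO, at 3554, 4426 and 3723 after 24 h, at 5042, 5867 and 5006 after 48 h and at 4127, 4964 and 4185 after 72 h of washout. The log2 fold changes were 0.42, 0.87 and 0.60 (adjusted p = 0.00317, 1.83e-07 and 3.78e-05). No washout group overlapped DMSO. Rps27a rose by 0.68 at 48 h (adjusted p = 2.98e-05) and Rpl37a by 0.67 (adjusted p = 8.96e-05), and at 24 h Rpl37a rose by 0.54 (adjusted p = 0.00146). At 72 h Rpl9 rose by 0.63 (adjusted p = 0.000291) and Rps12 by 0.53 (adjusted p = 0.0118), the latter called no longer without DMSO replicate 1 (adjusted p = 0.091).

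Rps27l was among the members that fell over the washout, at 785, 859 and 710 CPM after 24 h, at 684, 750 and 661 after 48 h and at 691, 848 and 667 after 72 h, all below its 3 DMSO libraries. The log2 fold changes were -0.37, -0.54 and -0.47 (adjusted p = 0.0118, 0.000274 and 0.00116).

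At 24 h Rps27l lost its call without DMSO replicate 2 or washout replicate 3 (adjusted p = 0.075 and 0.073). The count at 24 h was 9 without washout replicate 3. Rpl30, with the strongest fall at 48 h among the members called (log2 -1.82, adjusted p = 0.00146), was at 2.76 to 7.97 CPM with DMSO, which is few reads. Mature myeloid markers reached a summed 9025 to 11285, 49274 to 59802 and 48765 to 64966 CPM at the 3 times, and their part was not tested.

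**Figure D4:**
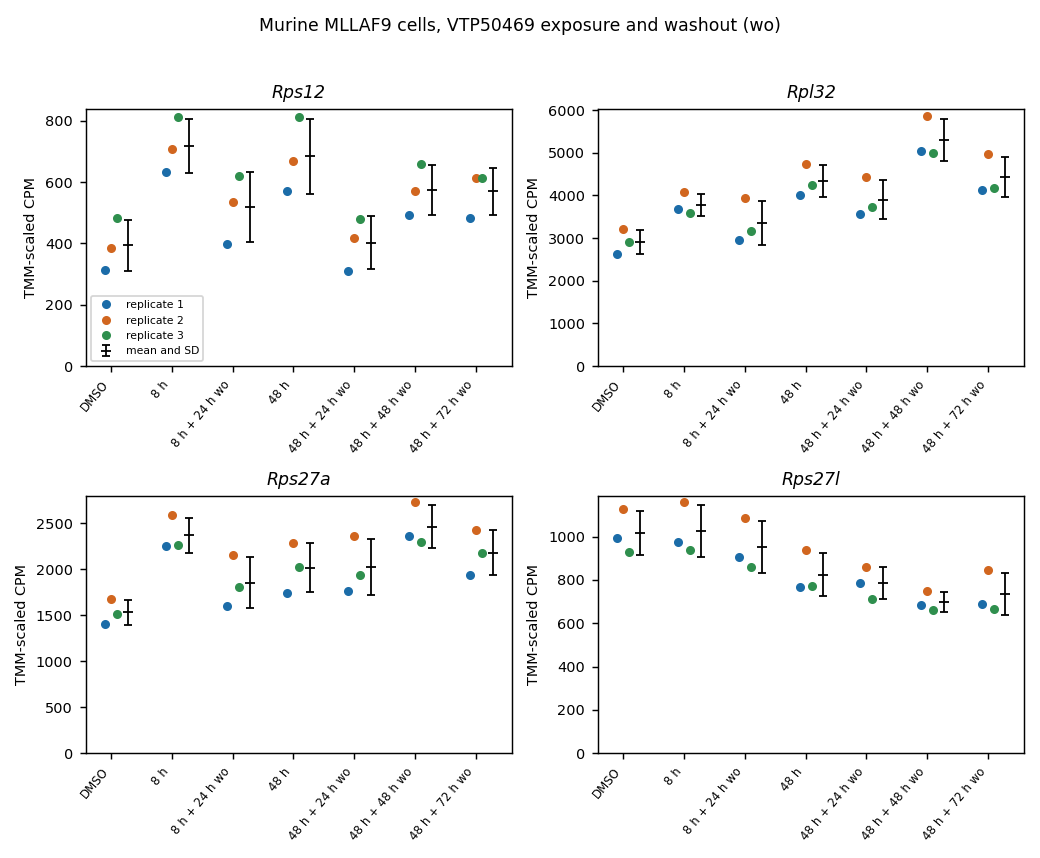
TMM-scaled CPM (y axis, from 0) of 4 members in the 21 libraries of the murine washout experiment, by exposure and washout (x axis), with replicates coloured and mean ± SD (n = 3) beside them. Rps12, Rpl32 and Rps27a lie above DMSO at 8 h and 48 h, and Rps27l lies below DMSO after 48 h and 72 h of washout.

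The murine knockout experiment, which also held control cells with VTP50469 for 8 h and 48 h, gave other values. At 8 h 0 of 77 members were called in edgeR (background 0.0417% higher and 0.0835% lower), 1 had an unadjusted p under 0.05, DESeq2 called 0, and the median was 0.12, with 68 members above 0. With the replicate block, which pairs these libraries, 8 rose and 0 fell (0.647% and 1.12% of all genes). At 48 h 0 rose and 4 fell (5.96% and 5.89%) and the median was -0.43, opposite in sign to the 0.22 of the washout experiment at the same time and dose. That difference between experiments was not tested. DMSO cells were labelled 72 h here and 48 h there.

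Rpl31 was at 898, 1946 and 982 CPM with DMSO and at 426, 748 and 451 at 48 h (log2 -1.24 ± 0.38, adjusted p = 0.0459). Rpl37 was at 752, 982 and 495 and at 297, 388 and 275 CPM (log2 -1.22 ± 0.33, adjusted p = 0.0248), and Rps24, a Diamond-Blackfan anaemia gene, at 1329, 1853 and 1246 and at 728, 931 and 584 CPM (log2 -0.98 ± 0.25, adjusted p = 0.0188). Each treated library was below all DMSO libraries of that gene. Rpl31 lost its call without DMSO replicate 2 or 3 or VTP50469 replicate 1 or 3, Rpl37 without DMSO replicate 1 or 2 or VTP50469 replicate 1 or 3, and Rps24 without DMSO replicate 2 or VTP50469 replicate 1 or 3 (adjusted p from 0.054 to 0.25). The count was 0 without DMSO replicate 2, VTP50469 replicate 1 or VTP50469 replicate 3, 2 without DMSO replicate 1 and 10 without VTP50469 replicate 2. DESeq2 called 9 lower. Mature myeloid markers summed to 1615 to 2232 CPM at 48 h.

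In MOLM13 control cells VTP50469 for 48 h raised 9 of 78 members and lowered 0 (background 8.19% and 8.29%), with a median of 0.08. RPS18 was at 6156, 5887 and 6224 CPM against 5298, 3295 and 5419 with DMSO (log2 0.38 ± 0.11, adjusted p = 0.0129), and RPL28 at 750, 741 and 838 against 636, 683 and 636 (log2 0.25 ± 0.06, adjusted p = 0.00361), both without overlap and called without any one library. RPL29 rose by 0.25 (adjusted p = 0.0389), a call lost without DMSO replicate 1 or 2 or VTP50469 replicate 2 (0.066 to 0.18). RPLP0 and RPLP1 rose by 0.22 and 0.19 (adjusted p = 0.00517 and 0.0215), and RPLP1 lost its call without DMSO replicate 1 or 3 or VTP50469 replicate 3 (0.056 to 0.087). A fit of the 6 libraries alone called 0 members, library totals gave 5 higher and 0 lower, and without DMSO replicate 2 or 3 14 members were called. Mature myeloid markers summed to 28.2 to 32.7 CPM.

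In PCGF1 KO cells 3 members rose with VTP50469 and 0 fell (4.92% and 3.34%), and in BCOR KO cells 0 were called by edgeR (4.23% and 3.02%), with 5 at an unadjusted p under 0.05 and 1 called by DESeq2. RPL23A was at 1964, 1753 and 1059 CPM with DMSO in PCGF1 KO cells and at 2306, 2101 and 2245 with VTP50469 (log2 0.48 ± 0.12, adjusted p = 0.0149), and 1 DMSO library was low. The call was lost without that library, DMSO replicate 3 (adjusted p = 0.075), or without VTP50469 replicate 1 (0.069). RPL28 rose by 0.20 (adjusted p = 0.0316), a call lost without any one of the 6 libraries (0.059 to 0.14). In PCGF1 KO cells the count was 0 without DMSO replicate 3 or VTP50469 replicate 1, and 1 without DMSO replicate 1, DMSO replicate 2 or VTP50469 replicate 2. In BCOR KO cells it was 1 without DMSO replicate 3. The interaction of PCGF1 KO with VTP50469 called 0 members in edgeR (0.198% higher and 0.189% lower of all genes), with 6 at an unadjusted p under 0.05, all lower, and 0 in DESeq2.

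In MV4;11 control cells VTP50469 raised 10 of 78 members and lowered 3 (background 10.6% and 10.4%), with a median of 0.10. RPL36A was at 1163, 1382 and 1172 CPM with DMSO and at 1767, 1725 and 1597 with VTP50469 (log2 0.45 ± 0.11, adjusted p = 0.00238), without overlap. RPS27L was at 500, 637 and 561 CPM and at 392.4, 437 and 380 (log2 -0.49 ± 0.13, adjusted p = 0.00749), and RPS15 at 1202, 1392 and 1157 and at 911, 1034 and 954 (log2 -0.37 ± 0.10, adjusted p = 0.0085). RPL23A fell by 0.37 (adjusted p = 0.00774), RPL27 rose by 0.32 (adjusted p = 0.041) and RPS14 by 0.30 (adjusted p = 0.016).

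The direction of this result rested on the scaling, and shares of all genes called under the other scalings are not given. By library totals 0 rose and 30 fell, or 3 and 5 with the 2 unnamed features left out of the totals, with RPL27 at -0.090 and RPS14 at -0.11, in libraries where the 2 unnamed features held 47.7% to 60.1% of counts with VTP50469 and 38.9% to 44.3% with DMSO. RPS27L, RPL23A and RPS15 lost their calls without DMSO replicate 2 (adjusted p = 0.06, 0.06 and 0.077), RPL23A and RPS15 also without VTP50469 replicate 1 (0.064 and 0.056). RPL27 lost its call without any DMSO library or VTP50469 replicate 1 (0.057 to 0.26) and RPS14 without DMSO replicate 1 or 3 or VTP50469 replicate 2 (0.053 to 0.075). The count was 7, 5 and 6 without DMSO replicate 1, 2 and 3, and 3 without VTP50469 replicate 1. Mature myeloid markers summed to 49.03 to 61.9 CPM.

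At 96 h of VTP50469 in the MOLM13 washout experiment 0 of 76 members rose and 2 fell, against 9.58% and 14.6% of 12741 genes, with a median of -0.66 against 0.03 for all genes. The unscaled share of members was 21.5%, 11.8% and 17.7% with DMSO and 12.1%, 12.3% and 22.4% at 96 h. This share fell in replicate 1 only. TMM factors were 0.703 to 0.853 with DMSO and 0.994 to 1.33 at 96 h. How far the median rests on that scaling is not given here. RPL39L, one of the members that fell, was at 94.8, 46.01 and 64.5 CPM with DMSO and at 10.2, 9.03 and 21.4 at 96 h (log2 -2.32 ± 0.55, adjusted p = 0.00545). The groups did not overlap, and the call was lost without VTP50469 replicate 1 (adjusted p = 0.051).

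Replicates of most members differed widely. RPS14 was at 20416, 4920 and 22788 CPM with DMSO and at 4432, 4533 and 26008 at 96 h, and RPLP0 at 6273, 6497 and 5371 and at 1130, 3112 and 4623. With the replicate block, which pairs these libraries, 1 rose and 15 fell, beside 16.3% and 24% of all genes. Without VTP50469 replicate 1 or replicate 2 the count was 1.

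At 48 h of washout 0 rose and 2 fell (4.95% and 7.24%), or 1 and 7 with the block (11.8% and 19.2%), again with RPL39L, at 12.9, 21.6 and 29.7 CPM (log2 -1.67 ± 0.53, adjusted p = 0.0432), below all DMSO libraries. RPL39L lost this call without any one of the 6 libraries (0.051 to 0.19). The count was 1 without DMSO or washout replicate 3 and 0 without any other library. At 96 h of washout 0 were called by edgeR (1.54% and 1.48%), with 5 at an unadjusted p under 0.05, all lower, and 1 by DESeq2, and the block gave 0 higher and 7 lower (6.45% and 12.8%). The median was -0.93, beside -0.23 for all genes. Mature myeloid markers summed to 518 to 1069 CPM with DMSO and to 1904 to 3213 at 96 h, and their part was not tested.

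In PCGF1/BCOR KO MOLM13 cells 0 rose and 5 fell at 96 h (10.6% and 17.1%), or 1 and 30 with the block (15.9% and 25.6%), with a median of -0.90. RPL10 was at 3232, 1876 and 3123 CPM with DMSO and at 545, 431 and 992 (log2 -2.06 ± 0.69, adjusted p = 0.0299), and RPL39L at 103.7, 43.7 and 55.7 and at 16.7, 14.3 and 32.2 CPM (log2 -1.65 ± 0.54, adjusted p = 0.0285). RPL4 was at 2459, 3722 and 3698 and at 793, 774 and 1286 CPM (log2 -1.79 ± 0.62, adjusted p = 0.0362). All treated libraries lay below all DMSO libraries. RPL10 lost its call without any library but VTP50469 replicate 3 (0.058 to 0.13), RPL39L without DMSO or VTP50469 replicate 1 or 2 (0.0502 to 0.16) and RPL4 without DMSO replicate 2 or 3 or VTP50469 replicate 1 or 2 (0.084 to 0.16). The count was 1 without VTP50469 replicate 1, without VTP50469 replicate 2, the library of 491592 counts, or without DMSO replicate 2, and 2 without DMSO replicate 1.

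Between genotypes with DMSO 0 of 76 members were called by edgeR (0.958% and 0.259%), 0 by DESeq2 and 0 had an unadjusted p under 0.05. The interaction with VTP50469 also called 0 in both (0.00785% and 0.0471% in edgeR), with 0 at an unadjusted p under 0.05.

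Without inhibitor, some members were called lower in the MOLM13 single knockouts, in calls that largely depended on control replicate 2. In MOLM13 PCGF1 KO 0 of 78 members rose and 11 fell against control DMSO (background 8.33% and 5.43%), with a median of -0.09 against -0.02. In BCOR KO 0 rose and 5 fell (4.05% and 2.99%), with a median of -0.06. RPS3 was at 6175, 10914 and 5861 CPM in control cells and at 5602, 5674 and 5116 in PCGF1 KO cells (log2 -0.49 ± 0.13, adjusted p = 0.0135). RPL8 was at 5891, 7013 and 4886 CPM in control, at 4374, 4978 and 4562 in PCGF1 KO (log2 -0.35, adjusted p = 0.0289) and at 4544, 4244 and 4892 in BCOR KO cells (log2 -0.38, adjusted p = 0.0322). In RPS3 and RPL8 the highest value was that of control replicate 2.

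RPL23A fell by 0.41 in PCGF1 KO cells (adjusted p = 0.0266), and RPS23 and RPS12 by 0.29 and 0.24 in BCOR KO cells (adjusted p = 0.0368 and 0.024), with overlap for none of the 3. RPL23A lost its call without control replicate 2 or 3 or PCGF1 KO replicate 3 (0.056 to 0.19), RPS23 without control replicate 2 or BCOR KO replicate 1 or 2 (0.1 to 0.32) and RPS12 without control replicate 2 or BCOR KO replicate 1 or 3 (0.067 to 0.16). RPL8 lost its calls without control replicate 1 or 2, PCGF1 KO replicate 1 or 3 and BCOR KO replicate 1 or 2 (0.053 to 0.25). Without control replicate 2, which stood apart, 1 member fell in PCGF1 KO and 2 in BCOR KO cells, and RPS3 was no longer called (adjusted p = 0.33), nor was it without PCGF1 KO replicate 3 (0.066). The count in PCGF1 KO was 2, 6 and 5 without PCGF1 KO replicate 1, 2 and 3, and in BCOR KO 0, 1 and 2 without BCOR KO replicate 1, 2 and 3 and 13 without control replicate 3. A fit of the 6 libraries alone called 0 in either, with both comparisons sharing the control libraries.

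In the MV4;11 PCGF1 KO clone 2 of 78 members rose and 13 fell (background 9.28% and 6.97%), with a median of -0.10, in a comparison whose knockout libraries stood apart from each other. RPL37 was at 1532, 1220 and 1461 CPM in control cells and at 599, 909 and 936 in the clone (log2 -0.79 ± 0.12, adjusted p = 1.5e-05), and RPS25 at 133, 135 and 138 and at 118, 80.6 and 54.4 (log2 -0.68 ± 0.15, adjusted p = 0.00164), both without overlap. RPS27A fell by 0.38 (adjusted p = 0.0092), RPLP0 by 0.24 (adjusted p = 0.0329) and RPS27L by 0.39 (adjusted p = 0.0387). RPL4 was at 421, 374 and 427 and at 404, 507 and 651 CPM (log2 0.35 ± 0.11, adjusted p = 0.0249), with overlap. RPS7, at 16.2 to 25.1 CPM in control and 24.2 to 76.0 in the clone, rose by 1.095 (adjusted p = 0.00241).

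By library totals the split turned to 18 higher and 0 lower. Shares of all genes called in this fit and the following fits are not given. Without PCGF1 KO replicate 1 16 rose and 26 fell, and 6, 7 and 4 members were called without PCGF1 KO replicate 2, PCGF1 KO replicate 3 and control replicate 2. RPL4 was not called without PCGF1 KO replicate 3 or control replicate 2 (adjusted p = 0.31 and 0.13), RPS7 without PCGF1 KO replicate 3 (0.065), and RPS27L without control replicate 2 or 3 or PCGF1 KO replicate 2 or 3 (0.081 to 0.26). RPS27A lost its call without PCGF1 KO replicate 3 (0.075) and RPLP0 without PCGF1 KO replicate 2 or any control library (0.059 to 0.11), while RPL37 and RPS25 were called without any one library. A fit of the 6 libraries alone called 0 higher and 1 lower.

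Erythroid differentiation of HuDEP-2 moved few members in the test without pairing. After DMSO 2 of 74 rose and 1 fell (background 8.12% and 7.6%), with a median of 0.02, and after SGC0946 1 rose and 1 fell (7.36% and 5.85%), with a median of -0.06. RPL3, at the peptidyl transferase centre, was at 7771, 7860 and 7875 CPM undifferentiated and at 11284, 11039 and 10850 differentiated after DMSO (log2 0.50 ± 0.10, adjusted p = 0.00307). After SGC0946 it was at 8294, 8411 and 8492 and at 10897, 10734 and 10692 CPM (log2 0.36 ± 0.10, adjusted p = 0.0278). The groups did not overlap in either.

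RPS10 was at 160, 150 and 159 CPM undifferentiated and at 119, 100 and 122 differentiated after DMSO (log2 -0.46 ± 0.11, adjusted p = 0.00898), and at 144, 137 and 149 and at 105, 90.9 and 103 after SGC0946 (log2 -0.52 ± 0.11, adjusted p = 0.00549). RPL12 rose by 0.34 after DMSO (adjusted p = 0.0308), a call lost without any library but undifferentiated replicate 1 (0.053 to 0.11). The call on RPL3 after SGC0946 was lost without any one of the 6 (0.07 to 0.078), and that on RPS10 after DMSO without differentiated replicate 2 (adjusted p = 0.054). After DMSO 4 rose and 1 fell without undifferentiated replicate 1, 1 rose and 2 fell without undifferentiated replicate 3, and 1 rose and 7 fell by library totals. After SGC0946 the count was 1 without differentiated replicate 1 or 2 or undifferentiated replicate 2 or 3.

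Same-numbered HuDEP-2 libraries deviated together, and with the replicate as a block more members and more genes of all kinds passed. Differentiation after DMSO then gave 28 higher and 17 lower of 74 (18.6% and 18.2% of all genes), and after SGC0946 16 higher and 28 lower (15.5% and 17.2%). SGC0946 called 0 members in undifferentiated cells in edgeR (3.11% and 0.751%) and 0 in differentiated cells (6.37% and 2.01%), with 0 at an unadjusted p under 0.05 in either and 0 in DESeq2. With the block 24 rose and 9 fell in the first (9.25% and 6.16% of all genes) and 8 rose and 19 fell in the second (12.9% and 12.1%). The interaction of pretreatment and differentiation called 0 members (0.396% and 0.0812%), with 1 at an unadjusted p under 0.05 and 0 in DESeq2, and 4 higher and 22 lower with the block (3.93% and 5.08%). The erythroid markers summed to 31197 to 36626 CPM undifferentiated and to 83445 to 101137 CPM differentiated after DMSO, and their part was not tested.

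Other genes of ribosome production were counted beside the cytosolic members. Ribosome biogenesis factors, which process and assemble ribosomal RNA, and mitochondrial ribosomal proteins (MRPL and MRPS), which serve the organelle's own ribosome, formed separate lists. At 48 h of washout in murine cells, where 19 of 78 cytosolic members rose and 8 fell, 0 of 77 mitochondrial members rose and 53 fell (median log2 -0.48), and 0 of 39 biogenesis factors rose and 29 fell (-0.70), beside 20% higher and 20% lower of all genes. At 72 h these were 1 and 56, and 0 and 30 (21.6% and 21% of all genes). At 8 h of exposure, with 31 cytosolic members higher, 2 mitochondrial members rose and 4 fell and 3 biogenesis factors rose and 2 fell (3.29% and 3.28% of all genes).

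In MOLM13 control cells VTP50469 for 48 h lowered 21 of 38 biogenesis factors and raised 0 (median -0.35) and lowered 9 of 71 mitochondrial members, beside 8.29% lower of all genes. SGC0946 lowered 6 and 10 of them and raised 0 of either (5.77% lower and 7.23% higher of all genes). In MV4;11 SGC0946 lowered 5 of 38 and 8 of 70 (5.79%), and VTP50469 lowered 8 and 8 (10.4%) and raised 0 and 1 (10.6%). In K562 the lists went the other way, with 28 of 37 biogenesis factors and 30 of 74 mitochondrial members higher and 0 and 6 lower (17.7% and 17.2% of all genes), and in mESC 13 of 39 biogenesis factors rose and 1 fell (9.76% and 12.3%). At 96 h of VTP50469 in MOLM13 0 rose and 48 of 73 mitochondrial members fell (median -2.001), as did 21 of 37 biogenesis factors (14.6% lower of all genes). HuDEP-2 differentiation after DMSO lowered 12 of 36 and 11 of 73 (7.6%) and raised 0 (8.12%). These lists were not tested against each other.

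**Figure D5:**
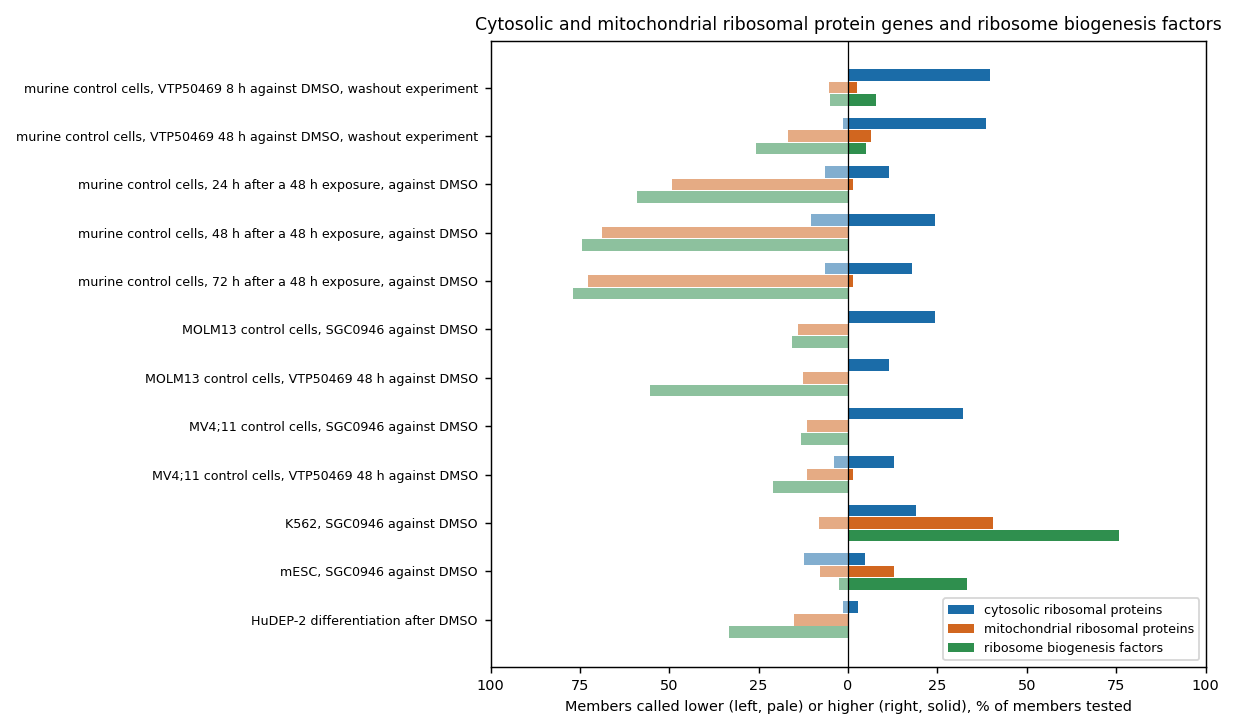
Percent of members tested that were called lower (left, pale) or higher (right, solid) in 12 comparisons (y axis), for cytosolic ribosomal proteins, mitochondrial ribosomal proteins and ribosome biogenesis factors (colours). In the murine washout series more cytosolic members are called higher than lower, while the other lists are called mostly lower from 24 h of washout. In K562 all 3 lists have more higher than lower calls. The share of all genes called is not drawn. Cytosolic higher calls are near it in K562 (18.9%, beside 17.7% of all genes) and near or under it at the murine washout times, where library totals turned the split.

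Other TOP genes, such as translation factors, gave 4 of 20 higher and 1 lower in MOLM13 with SGC0946, 4 and 1 with VTP50469, and 3 and 1 in MV4;11 with SGC0946, in comparisons that called 5.77% to 8.29% of all genes in each direction. Of ribosomal proteins outside the naming rule, RACK1, listed as Gnb2l1 in the murine tables, was at 1494, 1608 and 1289 CPM with DMSO and at 1163, 1203 and 1047 after 48 h of washout (log2 -0.36 ± 0.10, adjusted p = 0.00654). Fau was at 2149, 2226 and 2649 and at 3041, 3232 and 3453 CPM (log2 0.47 ± 0.11, adjusted p = 0.0016). Neither pair of groups overlapped, and the genes moved in opposite directions. The call on RACK1 was lost without washout replicate 3 (adjusted p = 0.052) and that on Fau stood without any one library.

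RPL7L1, a paralogue of RPL7 outside the rule, fell with either inhibitor in both human leukaemia lines. In MOLM13 it was at 296, 391 and 275 CPM with DMSO, at 228, 248 and 245 with SGC0946 (log2 -0.42 ± 0.10, adjusted p = 0.00405) and at 216, 231 and 208 with VTP50469 (log2 -0.55, adjusted p = 0.000161). In MV4;11 it was at 191, 196 and 187 CPM with DMSO, at 145, 150 and 161 with SGC0946 (log2 -0.34, adjusted p = 0.00854) and at 131, 137 and 139 with VTP50469 (log2 -0.50, adjusted p = 6.42e-05), and the SGC0946 call there was lost without SGC0946 replicate 1 (0.063). In murine cells it fell by 0.49 on the log2 scale at 48 h in both experiments (adjusted p = 0.0421 and 0.000421), the former lost without any library but VTP50469 replicate 2 (0.071 to 0.15), and no treated group overlapped its DMSO group in these comparisons. In K562 it rose, from 203, 227, 229 and 243 to 257, 270, 284 and 293 CPM (log2 0.29 ± 0.07, adjusted p = 0.00389).

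RPL22L1 rose by 0.54 at 8 h and 0.50 at 48 h in the murine washout experiment (adjusted p = 0.0283 and 0.0149), fell in MOLM13 PCGF1 KO and BCOR KO cells by 0.31 and 0.35 (adjusted p = 0.00859 and 0.0062), and rose by 0.73 in K562 (adjusted p = 0.0208), at a mean of 9.92 CPM. The murine calls were lost without DMSO replicate 1 or 3 or VTP50469 replicate 2 (0.053 to 0.18), that in PCGF1 KO without control or PCGF1 KO replicate 1 (0.056 and 0.08), and that in K562 without DMSO or SGC0946 replicate 1 or 4 (0.052 to 0.068). In MOLM13 it was at 806, 732 and 701 CPM in control DMSO, 568, 644 and 588 in PCGF1 KO and 583, 614 and 560 in BCOR KO libraries. Both knockout groups lay below all control libraries, and the 2 comparisons share those controls.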

How the data were processed

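The authors deposited raw read counts per gene from 3′ RNA-seq (whole numbers, not normalized). Per the methods they trimmed reads, aligned them with STAR to GRCh38 or GRCm38 and counted with its gene counting, and the submitters' processing notes also list bcl2fastq and DESeq2. Per-gene counts came in 8 tables, from which 138 libraries in 9 experiments were mapped by their labels, and 93 per-sample columns could not be mapped and were not used. The MV4;11 column names differ from the labels and were matched as the only control and PCGF1 sets with all 3 treatments. In 4 tables the last named column was blank and its values, 1 cell to the right, were used. Lines that name no gene were left out (36.3% to 48.6% of reads per library in the MOLM13 knockout table, 21.4% to 29.0% in MV4;11, at most 0.000815% elsewhere). Ensembl IDs were given symbols from GENCODE v44 (51662 of 63152). Total gene counts per library ran from 34303 to 47065530, and few counts limit the precision.

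A gene was tested where 2 or more libraries reached 2 CPM. Tests were run with edgeR 4.0.16 (R 4.3.3; TMM, quasi-likelihood test, 1 model per experiment over all its groups), with Benjamini-Hochberg adjustment over all genes tested and calls under 0.05, in 36 comparisons. DESeq2 1.42.0, other scalings, no filter, the replicate number as a block, fits on the compared libraries alone and leaving out each library were alternatives. Scaling without the 2 largest MV4;11 features was chosen after seeing the data. The test was checked on simulated data. Named members were up to 3 largest rises and 3 largest falls per comparison among called members with a mean of at least 50 CPM, plus members fixed by role, L paralogues and related lists. Members and lists were chosen with earlier results of these data known. Replicate numbers were taken to pair libraries where deviations of every same-numbered pair correlated above 0.1, which held in 11 of 32 comparisons (murine SGC0946 and VTP50469 8 h in the knockout experiment, and all of the MOLM13 washout and HuDEP-2 differentiation experiments). The lowest dispersion index between libraries of a group was 1.99, so none was counted as a duplicate. Start sites came from GENCODE v44 on GRCh38 and from RefSeq for mouse. Results for some genes are not reported here.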

Additional observations from a re-analysis of the deposited data

Results flagged for a closer look

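Among the mESC members named for the largest rises and falls, 4 values lay far from the other 3 libraries of their group by Dixon's criterion. Chance meets it in about 1 in 20 groups, and the number of groups examined is not given. With DMSO, Rpl27 was at 126 CPM in replicate 4, against 88.6, 88.9 and 90.5 in the others. With SGC0946, replicate 4 held 34303 counts in all, and there Rpl21 was at 180 CPM (40.2, 44.2 and 44.2 in the others), Rpl27 at 44.96 (156, 170 and 178) and Rpl31 at 202 (142, 146 and 150). Few reads lie behind these 3 values. Other mESC members are not listed here, although some also stood apart in that library, such as Rpl39l at 225 CPM (121, 111 and 108 in the others).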

How the results depend on the processing

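Member counts called are given as higher and lower, or as a total where a single number stands. Shares of all genes called in these fits are not given here. The counts therefore show only how far the calls depended on the processing. By library totals murine VTP50469 48 h (knockout experiment) gave 0 and 8 (8 in all), murine washout after 48 h of exposure 6 and 11 (17), 6 and 15 (21) and 7 and 21 (28), MOLM13 SGC0946 8, VTP50469 5, PCGF1 KO 5, BCOR KO 1, SGC0946 in PCGF1 KO 2 and in BCOR KO 2, 48 h of washout in MOLM13 0, PCGF1/BCOR KO with VTP50469 1, MV4;11 SGC0946 9, VTP50469 30 (RPL27 -0.090, RPS14 -0.11), PCGF1 KO 18, HuDEP-2 0 and its differentiation after DMSO 8. Without the 2 largest features MV4;11 VTP50469 gave 8.

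With no filter the counts were 12 (murine VTP50469 48 h, knockout experiment), 13 (24 h after 8 h), 1 (BCOR KO VTP50469), 1 and 2 (SGC0946 and VTP50469 interactions in MOLM13) and 5 (MOLM13 VTP50469 96 h). DESeq2 gave 9 (murine VTP50469 48 h, knockout experiment), 8 (BCOR KO SGC0946), 1 (BCOR KO VTP50469), 1 (MOLM13 96 h washout), 2 (HuDEP-2), 8 (mESC) and 6 (HuDEP-2 differentiation after DMSO). Median-of-ratios scaling gave 3 (murine 24 h after 8 h), 1 (MOLM13 48 h washout) and 1 (PCGF1/BCOR KO VTP50469), TMM without ribosomal protein genes 3 and 1 for the first 2, and leaving out low depth 1 for the last.

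Fitting only the compared libraries gave 9 (murine VTP50469 48 h, knockout experiment), 2 (24 h after 8 h), 0 (MOLM13 SGC0946, VTP50469, PCGF1 KO and BCOR KO), 1 (PCGF1 KO VTP50469), 7 and 3 (BCOR KO SGC0946 and VTP50469), 1 (MOLM13 48 h washout), 10 (PCGF1/BCOR KO VTP50469), 52, 24 and 1 (MV4;11 SGC0946, VTP50469 and PCGF1 KO) and 1 (HuDEP-2 differentiation after SGC0946).

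With the replicate block, where libraries were paired, counts were 14 (murine SGC0946), 8 (VTP50469 8 h, knockout experiment), 16, 8 and 7 (MOLM13 96 h, 48 h and 96 h washout), 31 (PCGF1/BCOR KO VTP50469) and, in HuDEP-2, 45 and 44 (differentiation after DMSO and SGC0946), 33 and 27 (SGC0946 undifferentiated and differentiated) and 26 (interaction). Where libraries shared only a number, the block gave 51 (murine VTP50469 48 h, knockout experiment), 68, 54, 44, 48, 57 and 54 (murine washout experiment in order of exposure and washout, where every library correlated best with its own number), and in MOLM13 29 (SGC0946), 19 (PCGF1 KO), 10 (BCOR KO), 8 and 7 (PCGF1 KO SGC0946 and VTP50469) and 12 and 1 (BCOR KO SGC0946 and VTP50469). The share of all genes called in these fits below the threshold is not given, so their counts are not read as results on members. The block lost none of the calls on named members and moved no other count by over 1.5 times.

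Leaving out single libraries gave total counts of 0 to 10 (murine VTP50469 48 h, knockout experiment), 16 to 30, 19 to 32, 0 to 7, 9 to 14, 18 to 23 and 18 to 21 (murine washout experiment), 12 to 23, 6 to 14, 1 to 14 and 0 to 13 (MOLM13 SGC0946, VTP50469, PCGF1 KO, BCOR KO), 2 to 3 and 0 to 4 (PCGF1 KO SGC0946, VTP50469), 1 to 4 and 0 to 1 (BCOR KO SGC0946, VTP50469), 1 to 3, 0 to 1 and 1 to 6 (MOLM13 96 h, 48 h washout, PCGF1/BCOR KO), 10 to 19, 3 to 15 and 4 to 42 (MV4;11 SGC0946, VTP50469, PCGF1 KO), 9 to 22 (K562), 0 to 5 (HuDEP-2), 10 to 25 (mESC) and 2 to 5 and 1 to 3 (HuDEP-2 differentiation after DMSO and SGC0946). Over named members, leave-one-out fits kept 403 calls and lost 139. The causes were not tested. Depth limits the mESC SGC0946 library of 34303 counts and the MOLM13 VTP50469 library of 491592 counts.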
